A study of Mus musculus with 4 samples.

Results

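Cd81, Cd9, Cd63, Cd82, Cd151 and Tspan8 are members of the tetraspanin family, and their transcripts were followed here through the cells of mouse pancreatic islets. The members were chosen by name, with their levels in these cells already known, so their levels and ratios are a description with no test. All 6 were found among the 32285 genes of the count matrix. The study concerns the transcription factor Xbp1 in beta cells of NOD mice, a strain that develops autoimmune diabetes. Per the labels, 2 samples came from Xbp1{beta}-/- mice and 2 from Xbp1fl/fl mice. All mice were 5 weeks old and all received tamoxifen, which switches on an inducible Cre recombinase. What promoter drives Cre was not given in the sources used here. Islets were picked by hand, kept in culture overnight and dissociated into single cells.

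The matrix pools 4 libraries, told apart by the number at the end of each cell barcode, and no number matches a sample's label (0 of 4). No value below therefore belongs to a genotype, and library numbers carry no order. Between 3455 and 5268 cells per library were kept, 16146 in all, at a median of 13287 to 33052 transcript molecules (unique molecular identifiers, UMIs) per cell. Libraries 1 and 3 held 629 and 495 B cell-like cells and 604 and 320 ductal-like cells. Libraries 2 and 4 held 24 and 1 B cell-like cells and 19 and 10 ductal-like cells. Xbp1, the targeted gene, stood at 67.7, 96.1, 60.0 and 96.1 CPM (counts per 1000000 UMIs of the class) in Spp1-low beta cells of libraries 1 to 4. The labels do not give the deleted part of Xbp1, and these levels are no check of it. Across all 6 pairs of libraries, 45 barcode sequences were shared.

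Cells were put into classes by hormone transcripts. Beta cells had Ins2 at 5% of UMIs or more, alpha cells Gcg at 5%, delta cells Sst at 3% and Ppy cells Ppy at 2%. Beta cells were split at 0.5% of UMIs from Spp1, the gene of osteopontin, into 5765 Spp1-low and 1078 Spp1-high cells. There were 1919 alpha, 1297 delta and 194 Ppy cells. The 886 cells that reached several hormone thresholds were left out of every class. Other cells were named from marker genes, such as Pecam1 for endothelial-like and Cd79a for B cell-like cells. No tetraspanin entered any of these definitions.

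Tetraspanins are small membrane proteins that cross the membrane several times and gather integrins, immunoglobulin-like proteins and enzymes into patches of the cell surface. Many are carried on extracellular vesicles. Cd81 is found on many cell types and has been described as a surface marker of immature beta cells. Cd9 is known from sperm and egg fusion, and Cd63 from late endosomes, lysosomes and secretory granules. Cd82 was described as a suppressor of metastasis, Cd151 binds laminin-binding integrins, and Tspan8 is found on epithelia of the gut.

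The family is recognised by a Cys-Cys-Gly motif in its large extracellular loop. The coding stretches around it are shown because all 6 genes share this motif while their flanks differ. Capitals mark the in-frame codons (TGC or TGT, then TGC or TGT, then GGN), taken at the first such site past codon 100 of the principal coding transcript in GENCODE M21. Each stretch has 51 bases and joins 2 exons, and coordinates are in GRCm38.
Cd81: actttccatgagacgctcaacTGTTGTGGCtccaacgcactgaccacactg
Cd9: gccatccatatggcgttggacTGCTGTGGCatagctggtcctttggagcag
Cd63: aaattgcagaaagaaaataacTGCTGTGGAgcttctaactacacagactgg
Cd82: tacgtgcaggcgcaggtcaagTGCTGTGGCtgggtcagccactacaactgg
Cd151: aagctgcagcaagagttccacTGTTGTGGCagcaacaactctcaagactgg
Tspan8: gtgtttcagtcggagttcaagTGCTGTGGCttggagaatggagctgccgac

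The capitals begin at codon 156 in Cd81, 150 in Cd9, 145 in Cd63, 149 in Cd82, 155 in Cd151 and 151 in Tspan8. The genome spans, introns included, are chr7:143066338-143066696 for Cd81 (plus strand), chr6:125462168-125462341 for Cd9 (minus), chr10:128912049-128912196 for Cd63 (plus), chr2:93420720-93421841 for Cd82 (minus), chr7:141470211-141470345 for Cd151 (plus) and chr10:115835369-115839910 for Tspan8 (plus). Among the 15 pairs of members, Cd63 and Cd151 shared 31 of 51 bases and Cd81 and Cd63 shared 20. All 31 tetraspanin genes with a principal coding transcript held such a site past codon 100, against 1.83% of 21707 genes. A match is a description of the letters only.

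Cd81 (ENSMUSG00000037706, GRCm38 chromosome 7, 143052739 to 143067934, plus strand) differed most between libraries in beta cells. Spp1-low beta cells held 227, 28.8, 237 and 30.6 CPM in libraries 1 to 4. The 95% intervals were 218 to 236 CPM and 230.3 to 245 CPM for libraries 1 and 3, and 27.9 to 29.7 CPM and 29.4 to 31.8 CPM for libraries 2 and 4. In Spp1-high beta cells the levels were 271, 25.2, 259 and 24.9 CPM. Libraries 1 and 3 were high and libraries 2 and 4 low in both beta classes, and the intervals of the high and the low libraries did not overlap. These intervals are exact Poisson intervals and cover counting error only.

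Alpha cells of the same libraries did not show this spread. Their Cd81 stood at 246, 249, 245 and 247 CPM in libraries 1 to 4, and all 4 intervals overlapped. Delta cells held 368, 391, 350.4 and 413 CPM, and Ppy cells 308, 238, 261 and 245 CPM. In endothelial-like cells Cd81 lay at 465, 469, 455 and 515 CPM. The range over libraries, as log2 of the highest over the lowest CPM with 10 CPM added, was 2.67 in Spp1-low and 3.01 in Spp1-high beta cells. It was 0.02 in alpha cells, 0.23 in delta cells and 0.18 in endothelial-like cells. In Spp1-low beta cells 12 of 14184 genes, Cd81 included, had a range at least as wide, and in alpha cells 11677 of 11683 did. The hormone genes made up 47.5%, 57.8%, 45.1% and 56.7% of UMIs in Spp1-low beta cells of libraries 1 to 4, and without these genes in the total the range there was 2.5.

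**Figure D1:**
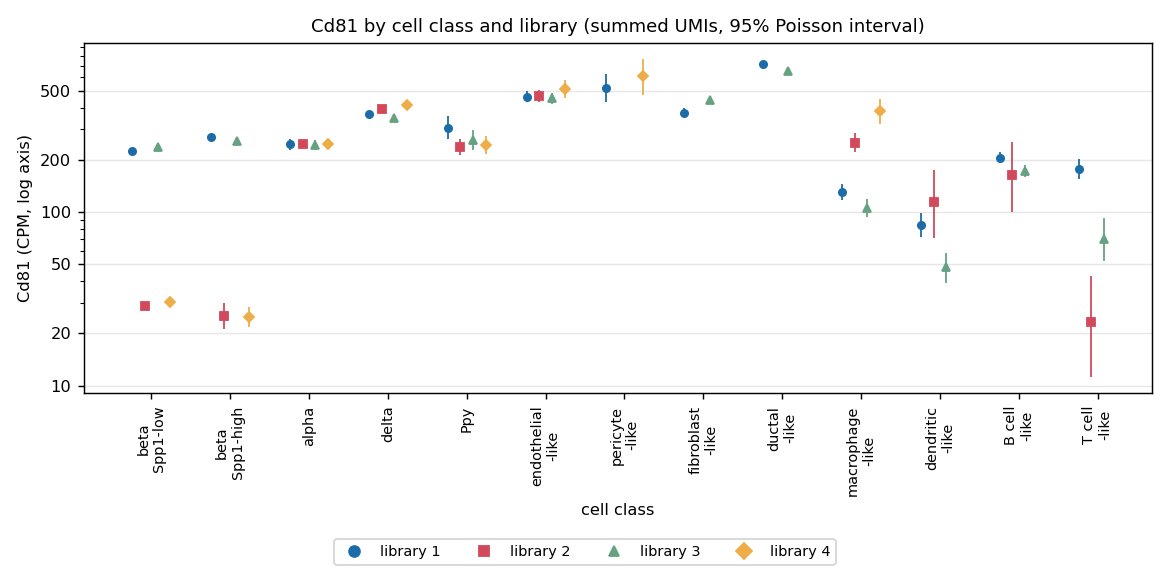
Cd81 in CPM (log axis) by cell class, with 1 symbol per library and exact 95% Poisson intervals; classes with under 20 cells in a library have no symbol. In both beta classes libraries 2 and 4 lie between 24.9 and 30.6 CPM, below the alpha cells of every library at 245 to 249 CPM.

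The share of cells with a Cd81 UMI followed the same order after each cell was thinned to 5000 UMIs. In Spp1-low beta cells it was 63.5%, 11.3%, 66.2% and 12.1% in libraries 1 to 4, over 219, 3041, 328 and 1928 cells. Unthinned, the shares were 88.4%, 32.4%, 92.7% and 29.4%. In alpha cells the thinned shares were 65.6%, 66.7%, 63.4% and 68.3%, and in delta cells 83.2%, 84.8%, 80.9% and 85.3%. Between 14 and 148 Spp1-low beta cells per library were left out as shallower than 5000 UMIs. Dendritic-like cells had thinned shares of 14.8% and 11.3% in libraries 1 and 3, so the beta shares of libraries 2 and 4 lay at the level of a class with little Cd81, and free RNA cannot be told apart from expression there. The dendritic-like and beta shares come from different libraries, and free RNA was not measured in any. Dendritic-like cells of library 2 held Cd81 at 115 CPM, from 21 UMIs in 20 cells. The median depth before thinning was 11009 and 10028 UMIs in dendritic-like cells of libraries 1 and 3. It was 42146 and 37222 UMIs in the beta cells of libraries 2 and 4.

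Within Spp1-low beta cells, Cd81 was lower where Ins2 took more of the UMIs in libraries 2 and 4. In library 2 it stood at 135, 39.9 and 20.2 CPM in cells with 5 to 20%, 20 to 35% and over 35% of UMIs from Ins2. Library 4 gave 100.5, 44.4 and 18.7 CPM. Libraries 1 and 3 gave 236, 261 and 183 CPM and 243, 255 and 209 CPM. Even in cells with over 35% Ins2, libraries 1 and 3 lay above the other libraries, with intervals of 169.8 to 197 and 197 to 221 CPM against 19.2 to 21.2 and 17.5 to 20.1.

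The cells of lowest Ins2 share were also shallow in the libraries with low Cd81. Their median was 3685 UMIs in library 2 and 4856 in library 4, against 41836 and 42043 in libraries 1 and 3. In library 2 these cells held endothelial markers at 712 CPM and macrophage markers at 650.0 CPM, against 6.73 and 19.0 CPM in cells with over 35% Ins2. In library 4, with a like Cd81 gradient, the same cells held endothelial markers at 25.1 CPM and macrophage markers at 30.7 CPM, against 4.45 and 22.2 CPM. They also held Sst at 0.791% of UMIs, Gcg at 0.498% and ductal markers at 750 CPM. With over 35% Ins2 these were 0.022%, 0.0299% and 386 CPM. Sst was higher at the lowest Ins2 share in the other libraries too. The part of these markers, of other hormones and of depth in the Cd81 gradient was not tested. Cells with at least 2.5 but under 5% Ins2, just outside the beta threshold, held Cd81 at 242 CPM. Those just inside, up to 10%, held 259 CPM. Both values were pooled over the 4 libraries, which differ in this range. The cells just outside were any that reached no hormone threshold, and those just inside included Spp1-high cells. Their median depth was 4359 UMIs outside and 28820 UMIs inside.

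**Figure D2:**
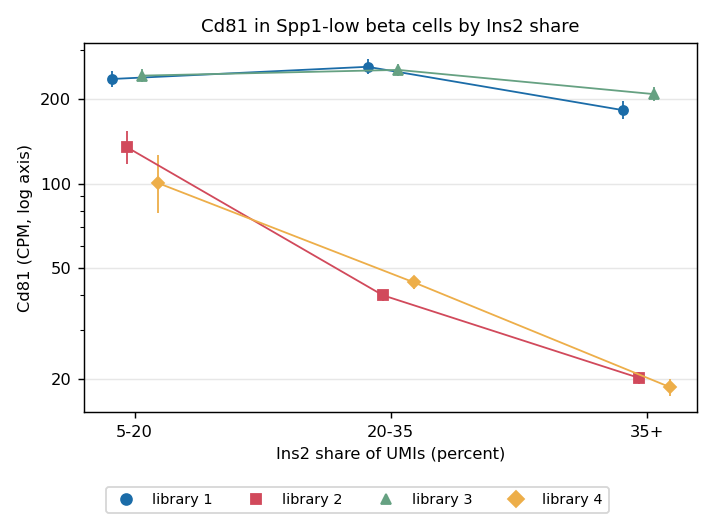
Cd81 in CPM (log axis) in Spp1-low beta cells against the share of UMIs from Ins2, with 1 line per library and 95% Poisson intervals. Libraries 1 and 3 stay between 183 and 261 CPM, while library 2 goes from 135 to 20.2 CPM and library 4 from 100.5 to 18.7 CPM.

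Ordered by their median over libraries with at least 20 cells, the highest Cd81 levels were in ductal-like cells, at 711 and 653 CPM in libraries 1 and 3. Pericyte-like cells, 20 in each of libraries 1 and 4, followed with 523 and 609.5 CPM, then endothelial-like cells, then fibroblast-like cells with 375 and 441 CPM in libraries 1 and 3. Fibroblast-like and delta cells overlapped, as did alpha and Ppy cells, so with hormone genes in the totals neither of these neighbours differed beyond its spread. This depended on the total. Without hormone genes in it, Ppy cells lay above alpha cells, at 409 to 498 CPM against 332 to 354 CPM. Delta cells then lay above fibroblast-like cells, at 464 to 576 CPM against 376 and 442 CPM. The delta median of 510 CPM also passed the endothelial-like median of 472 CPM. The lowest pericyte-like value lay just above the highest endothelial-like one, and their intervals overlapped. None of the 10 leading genes of pericyte-like cells was among their markers. Macrophage-like cells ranged widely, with 131, 252, 106 and 384 CPM. B cell-like cells held 207, 164 and 173 CPM in libraries 1 to 3. T cell-like cells held 178, 23.4 and 70.2 CPM in libraries 1 to 3, the second of these from 10 UMIs.

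Cd9 (chromosome 6, 125460266 to 125494791, minus strand) was also uneven in beta cells. Spp1-low beta cells held 19.8, 3.17, 18.5 and 2.79 CPM in libraries 1 to 4, so libraries 1 and 3 were again the high ones. Alpha cells held 65.0, 41.6, 46.6 and 58.9 CPM, with no such split. Delta cells held 46.0, 20.7, 46.8 and 28.6 CPM and split as beta cells did, with intervals of the high and the low libraries that did not overlap. Levels were far higher in endothelial-like cells (788, 322, 535 and 346 CPM, again highest in libraries 1 and 3), ductal-like cells (529 and 486 CPM in libraries 1 and 3) and dendritic-like cells (402, 662 and 549 CPM in libraries 1 to 3). Of the hormone classes, Ppy cells stood apart at 176, 203, 180 and 224 CPM, above every alpha and delta value.

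Because Cd9 is high in non-hormone cells, their markers are given beside it. The 8 macrophage markers summed to 109, 28.7, 71.0 and 24.1 CPM in Spp1-low beta cells of libraries 1 to 4, and the 6 fibroblast markers to 35.8, 1.33, 34.1 and 1.45 CPM. The 8 ductal markers summed to 630, 359, 720 and 396 CPM there, against 6804 and 6703 CPM in ductal-like cells of libraries 1 and 3. No macrophage or ductal marker was at 0 in these cells, and 1 fibroblast marker was at 0 in library 2. These 3 sums were higher in libraries 1 and 3, as were Cd81 and Cd9. Endothelial markers (37.4, 22.0, 18.3 and 9.07 CPM) did not follow that order. B cell markers stood at 4.17, 3.85, 9.54 and 2.33 CPM, T cell markers at 3.41, 2.44, 3.12 and 0.432 CPM, and acinar markers at 94.3, 2.22, 8.48 and 4.06 CPM. Each of these sums was also higher in libraries 1 and 3. In alpha cells the macrophage, fibroblast and ductal sums were higher in libraries 1 and 3 too, while the endothelial and B cell sums did not follow that order. The part of any of these in either result was not tested.

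Cd63 (chromosome 10, 128900989 to 128912822, plus strand) was found in most endocrine cells, with a UMI in 92.0 to 100% of cells of the 5 hormone classes after thinning. Spp1-low beta cells held 1067, 1267, 1011 and 1357 CPM, alpha cells 782, 744, 657 and 723 CPM, and delta cells 1924, 2644, 1858 and 2673 CPM. The 3 classes did not overlap, with alpha lowest and delta highest. This depended on the total for beta and delta cells. Without hormone genes in it they overlapped, at 2032, 3001, 1841 and 3132 CPM in beta and 2499, 3663, 2458 and 3724 CPM in delta cells. Delta cells were still the higher within each library. In beta cells the order of libraries was the opposite of that of Cd81, with libraries 2 and 4 the higher. Macrophage-like cells held 1615, 2575, 1926 and 3291 CPM and fibroblast-like cells 1993 and 2289 CPM in libraries 1 and 3. B cell-like cells held 28.2, 73.9 and 18.2 CPM in libraries 1 to 3 and were among the lowest, with T cell-like cells at 45.9, 39.8 and 11 CPM.

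Cd82 (chromosome 2, 93419111 to 93463140, minus strand) was highest in T cell-like cells, at 168, 138 and 100.4 CPM in libraries 1 to 3. Spp1-low beta cells held 40.0, 31.4, 38.7 and 38.0 CPM, within the span of alpha cells at 66.2, 32.5, 31.2 and 37.4 CPM. Library 1 was the high one in alpha cells and was not set apart in beta cells. Delta cells held 67.7, 85.2, 62.7 and 90.4 CPM.

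Cd151 (chromosome 7, 141467392 to 141471473, plus strand) had its highest medians in the vessel classes, among classes with at least 20 cells in a library. Endothelial-like cells held 252, 272, 234 and 285 CPM and pericyte-like cells 283 and 189 CPM in libraries 1 and 4. Ductal-like cells held 131 and 149 CPM and fibroblast-like cells 74.2 and 88.8 CPM in libraries 1 and 3. Spp1-low beta cells held 30.4, 13.7, 33.1 and 14.5 CPM, again with libraries 1 and 3 the higher, and Spp1-high beta cells 48.1, 14.2, 38.7 and 13.4 CPM. Alpha cells held 27.4, 24.2, 25.03 and 23.1 CPM, with overlapping intervals.

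Tspan8 (chromosome 10, 115816832 to 115849893, plus strand) separated the hormone classes. Ppy cells held 767, 585, 644 and 775 CPM, delta cells 169, 356, 201 and 387 CPM, and alpha cells 32.2, 20.8, 25.8 and 24.4 CPM. Spp1-low beta cells were lowest among the 4 hormones' main classes, at 11.6, 6.27, 16.4 and 6.12 CPM. In delta cells libraries 2 and 4 were the higher ones, while in beta cells they were the lower. Ductal-like cells held 299.7 and 310.0 CPM in libraries 1 and 3. No Tspan8 UMI was found in fibroblast-like cells, where the 3 counts that a 0 allows come to 0.943 CPM in library 1 and 0.906 in library 3. After thinning, 87.3 to 94.5% of Ppy cells had a Tspan8 UMI, and 50.3 to 65.2% of delta cells. The share was 5.55 to 9.63% in alpha cells and 2.18 to 5.49% in Spp1-low beta cells, and 0% in fibroblast-like cells (0 of 97 and 0 of 102 cells in libraries 1 and 3). Alpha and delta libraries did not overlap in this share.

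**Figure D3:**
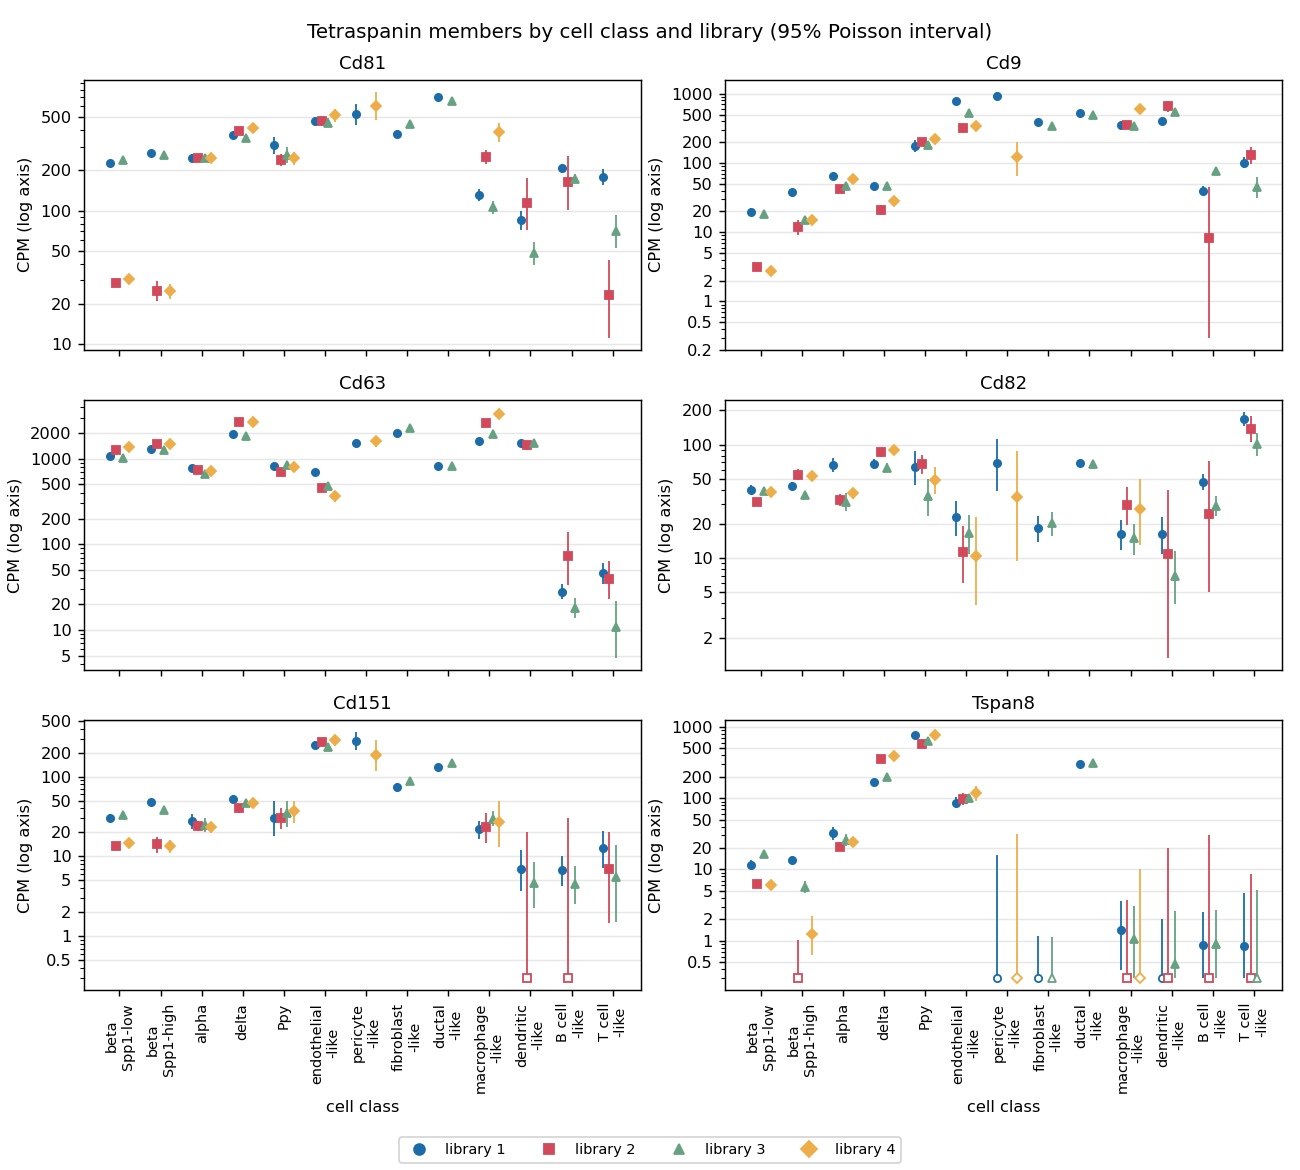
The 6 tetraspanins in CPM (log axes that differ between panels) by cell class, with 1 symbol per library and 95% Poisson intervals; open symbols at the foot of an axis stand for 0 or nearly 0. Tspan8 is highest in Ppy cells at 585 to 775 CPM, Cd151 in the vessel classes, and Cd82 in T cell-like cells at 100.4 to 168 CPM.

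To set the members against the rest of the transcriptome, ratios of CPM with 10 CPM added were taken within each library. A gene was counted when its ratio passed 2-fold the same way in every library that held at least 50 cells of both classes. The background is the share of all genes so counted, in either direction. Genes with at least 50 UMIs in either class were used, and all 6 members passed this filter in each of the 9 comparisons. Between Spp1-low beta and alpha cells 0 of 6 members passed 2-fold, with a background of 3.31% of genes. Cd9 came closest, with log2 ratios of -1.33, -1.97, -0.99 and -2.43 in libraries 1 to 4, and it passed without library 3. Cd81 gave -0.11, -2.73, -0.04 and -2.66, so it was past 2-fold in libraries 2 and 4 and near equal to alpha cells in libraries 1 and 3. Cd63 was higher in beta cells, at 0.44, 0.76, 0.61 and 0.90. The median of all genes was -0.23 here and 0.00 when 7 hormone genes were taken out of the totals. Leaving them out turned the median of Cd82 from -0.01 to 0.57 and that of Cd151 from -0.16 to 0.29. It also turned Cd81 in libraries 1 and 3, to 432 and 432 CPM in beta cells against 332 and 350 CPM in alpha cells. In libraries 2 and 4 Cd81 stayed lower in beta cells, at 68.3 and 70.6 CPM against 354 and 345 CPM.

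Against delta cells, 1 of 6 members, Tspan8, passed 2-fold in Spp1-low beta cells, with a background of 2.96%. Its log2 ratios were -3.06, -4.49, -3.0 and -4.62. Cd81 gave -0.67, -3.37, -0.54 and -3.38. Without hormone genes in the totals, Cd81 in libraries 1 and 3 lay nearer to delta cells, at 432 and 432 CPM against 477 and 464 CPM. Between delta and alpha cells 2 of 6, Cd63 and Tspan8, passed and were higher in delta cells, with a background of 4.04%. Their median log2 ratios were 1.65 and 3.04. With cells of several hormones kept, Tspan8 alone passed here and between Ppy and alpha cells. Between Ppy and alpha cells, in libraries 2 and 4, 2 of 6 passed, Cd9 and Tspan8, with a background of 2.69% and medians of 1.90 and 4.39.

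Non-hormone classes differed from alpha cells in many genes, and the members' counts are read against that. In endothelial-like cells 3 of 6 members were past 2-fold, Cd9, Cd151 and Tspan8, all higher, with a background of 18.9%. In ductal-like cells, over libraries 1 and 3, the count was 4 of 6 (Cd81, Cd9, Cd151 and Tspan8, all higher) and the background 19.4%. In macrophage-like cells, over libraries 1 to 3, it was 3 of 6 (Cd9 and Cd63 higher, Tspan8 lower) and the background 21.6%. Tspan8 had 4, 0 and 3 UMIs in these cells and passed the filter through alpha cells, so it could only be lower and supports nothing. In B cell-like cells, over libraries 1 and 3, it was 3 of 6 (Cd63, Cd151 and Tspan8, all lower) and the background 28.3%. Tspan8 had 3 and 3 UMIs and Cd151 23 and 15 UMIs there, and both passed the filter through alpha cells, so nothing is read from them. When hormone genes were taken out of the totals, Cd81 lost its call in ductal-like cells and Cd63 in macrophage-like cells. In endothelial-like cells Tspan8 then lost its call, and Cd82 passed as lower, with a median log2 ratio of -1.49.

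Ranges over libraries were read the same way. In Spp1-low beta cells 2 of 6 members, Cd81 and Cd9, had a range of at least 2-fold, with a background of 2.52%. In Spp1-high beta cells 4 of 6 did (Cd81, Cd9, Cd151 and Tspan8), with a background of 7.98%. In alpha cells 0 of 6 did, with a background of 2.14%, and in delta cells 1 of 6, Tspan8, with 2.65%. In endothelial-like cells 1 of 6, Cd9, did, with a background of 12.6%. The median range of the 6 members in Spp1-low beta cells was 0.79, beside 0.26 for all genes, and 0.35 beside 0.23 in alpha cells. Without library 1 the count in Spp1-high beta cells became 2, and those in delta and endothelial-like cells became 0. Tspan8 had 231, 1, 98 and 11 UMIs (13.5, 0.184, 5.74 and 1.24 CPM) in Spp1-high beta cells of libraries 1 to 4. It reached 50 UMIs through libraries 1 and 3, and libraries 2 to 4 lay under the 10 CPM added. Nothing is read from its range there.

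**Figure D4:**
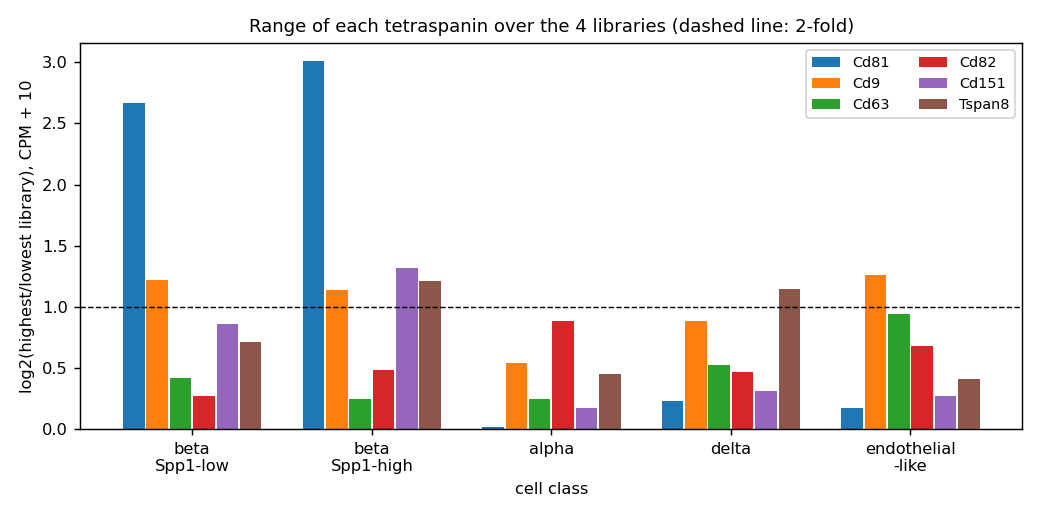
Range of each tetraspanin over the 4 libraries, as log2 of the highest over the lowest CPM with 10 CPM added, by cell class; bars start at 0 and the dashed line marks 2-fold. Cd81 reaches 2.67 and 3.01 in the beta classes and 0.02 in alpha cells.

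Spp1-high and Spp1-low beta cells were compared within each library. Of the 6 members 0 passed 2-fold the same way in every library, with a background of 0.0351%. Cd63 was higher in Spp1-high cells of all 4 libraries, with log2 ratios of 0.29, 0.24, 0.31 and 0.12. This depended on the total. Without hormone genes in it, the median ratio was 0.08 in place of 0.26, and library 1 turned, with 2006 CPM in Spp1-high and 2032 CPM in Spp1-low cells. Hormone genes took 35.01% of UMIs in the former and 47.5% in the latter. Cd9 was higher in libraries 1, 2 and 4, at 0.70, 0.74 and 0.97, and lower in library 3, at -0.18. Cd81 gave 0.25, -0.14, 0.12 and -0.22, with no common direction. Cells with several hormones were not part of either class.

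Across finer bins of the Spp1 share, Cd63 was lowest in cells with under 0.1% Spp1 in each library. It stood there at 1002, 1247, 963 and 1329 CPM in libraries 1 to 4. With 2% Spp1 or more it stood at 1362, 1661, 1320 and 1630 CPM, the second of these from 11 cells. Cd9 went from 2.82 to 36.9 CPM in library 2 and from 2.30 to 45.3 CPM in library 4 between the same bins, and from 18.0 to 12.8 CPM in library 3. Totals in these bins include hormone genes. In Spp1-low cells Cd63 was lower where Ins2 took more of the UMIs in each library. In library 1 it stood at 1370, 1010 and 847 CPM with 5 to 20%, 20 to 35% and over 35% Ins2. The part of the total in the order of Cd63 over Spp1 bins was not tested. Just outside and just inside the split, with 0.25 to 0.5% and 0.5 to 1% Spp1, Cd81 stood at 279 and 258 CPM in library 1, 29.1 and 18.9 in library 2, 238 and 238 in library 3, and 20.98 and 29.8 in library 4. Acinar markers summed to 3216 CPM in Spp1-high beta cells of library 1 and to 94.3 CPM in its Spp1-low cells, and their part in the Cd9 difference of that library was not tested.

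**Figure D5:**
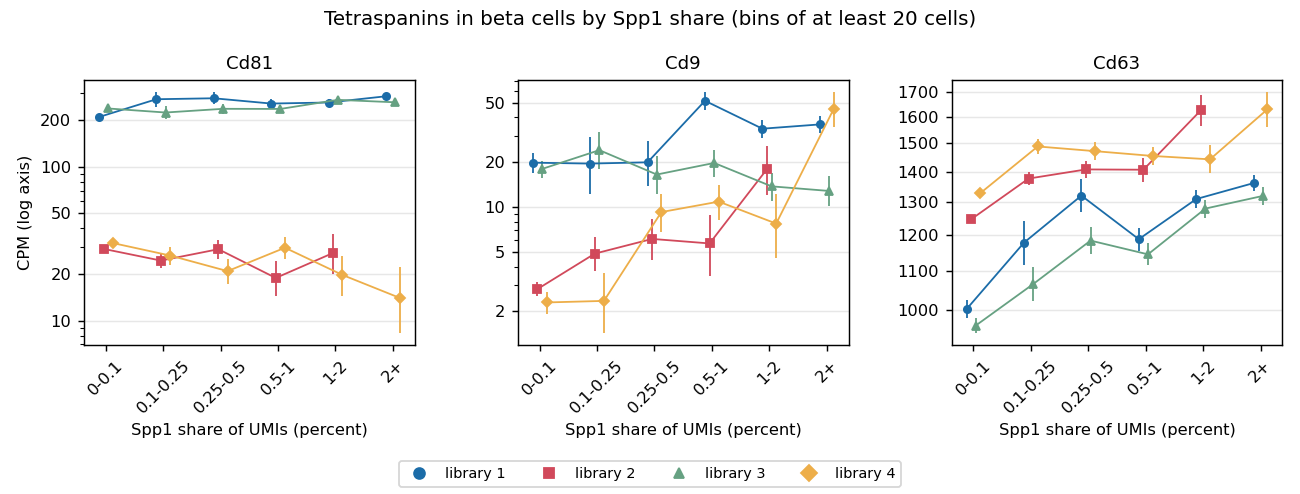
Cd81, Cd9 and Cd63 in CPM (log axes that differ between panels) in beta cells by Spp1 share of UMIs, with 1 line per library and 95% Poisson intervals, for bins of at least 20 cells. Cd63 starts lowest in every library, at 963 to 1329 CPM, while Cd81 keeps its gap between libraries 1 and 3 and libraries 2 and 4 in every bin. Totals include hormone genes.

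Other members of the family were counted the same way. Of 25 other tetraspanin genes, 19 had enough UMIs in Spp1-low beta cells and 0 had a range of at least 2-fold, against 2.52% of all genes. Their median range was 0.31 beside 0.26 for all genes. In alpha cells 1 of 15, Cd53, had such a range, in delta cells 1 of 17, also Cd53, and in Spp1-high beta cells 1 of 18, Tspan5. Whether these counts differ from those of the 6 members was not tested. The most abundant by total UMIs was Tspan13, at 149, 124, 148 and 119 CPM in Spp1-low beta cells. Tspan7, a target of autoantibodies in diabetes, held 106, 110.4, 100.8 and 109 CPM, and 166.5, 226, 175 and 193 CPM in alpha cells. Tspan3 held 74.3, 58.4, 71.0 and 59.6 CPM and Tspan31 53.5, 50.03, 52.2 and 50.6 CPM in Spp1-low beta cells. Tspan5, which guides the protease Adam10, held 71.8, 41.1, 77.2 and 37.0 CPM there, and Tspan15, of the same kind, 61.5, 41.5, 61.7 and 47.4 CPM.

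Partner proteins and genes of extracellular vesicles were followed as lists, which were chosen with earlier results of these data known. Of 17 partner genes 14 had enough UMIs in Spp1-low beta cells, and 3 had a range of at least 2-fold, Igsf8, Ifitm3 and Cd44, beside 2.52% of all genes. Igsf8 is the immunoglobulin-like protein that binds Cd81 and Cd9 directly, and it and Cd44 are named after their values were seen. Ifitm3, an interferon-induced membrane protein, held 58.3, 1.99, 30.7 and 0.903 CPM in Spp1-low beta cells and 207, 12.3, 99.1 and 13.6 CPM in alpha cells, so it differed in both. Epcam held 306, 246, 319 and 268 CPM and Cldn7, a tight junction protein, 253, 209.9, 275 and 213 CPM in Spp1-low beta cells. Of 10 vesicle genes 1, Anxa2, had such a range beside the same 2.52%, at 19.8, 2.81, 23.1 and 1.60 CPM, and it had one in alpha cells too, at 108, 11.6, 30.0 and 8.54 CPM. The adaptors Sdcbp and Pdcd6ip held 81.7 to 97.2 and 83.9 to 94.9 CPM.

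Since Cd81 has been described in immature beta cells, 8 genes of beta cell maturity were set beside it. They were chosen with earlier results of these data known, so their counts are a description with no test. Of the 8 genes, 5 had a range of at least 2-fold in Spp1-low beta cells, Mafa, Slc2a2, Aldh1a3, Npy and Gast, beside 2.52% of all genes. In alpha cells 2 of 5 did, Mafa and Npy, and in delta cells 4 of 8. Mafa held 1.58, 25.9, 24.3 and 9.03 CPM in alpha cells, beside 2.765, 26.8, 9.435 and 8.735 CPM in endothelial-like cells. G6pc2 held 60.8, 15.75, 50.4 and 7.1 CPM in delta cells, beside 52.4, 18.25, 4.97 and 10.9 CPM in macrophage-like cells. Free RNA cannot be told apart from expression there, so nothing is read from the alpha and delta ranges. In Spp1-low beta cells Mafa, a transcription factor of mature beta cells, held 312, 709, 303 and 532 CPM. The glucose transporter Slc2a2 held 34.7, 82.9, 34.96 and 49.8 CPM, and both were lower where Cd81 was higher. Aldh1a3, known from dedifferentiated beta cells, held 14.1, 0.487, 15.0 and 0.733 CPM, Npy 482, 129, 591 and 112 CPM and Gast 28.3, 1.28, 72.4 and 1.27 CPM, all higher where Cd81 was higher. Ucn3 (32.9, 58.1, 38.0 and 36.8 CPM) and G6pc2 (446, 537, 486 and 466 CPM) had narrower ranges. In Spp1-high beta cells Mafa held 394, 296, 512 and 249.5 CPM, and Slc2a2 39.3, 28.7, 73.7 and 19.6 CPM. There libraries 1 and 3 were the higher for both genes, the opposite of their order in Spp1-low cells.

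Patterns over classes and libraries were compared by Pearson's r of log2 CPM with 10 CPM added, over 45 pairs of class and library that share libraries and depth. Among 7776 other genes, those most like Cd81 were Ier2 (0.80), Zfp326 (0.76), Hes1 (0.75), Rock2 (0.75) and Nr4a1 (0.75). Myl12a, Zyx and Anxa2 were most like Cd9, at 0.87, 0.85 and 0.83, and Ywhag, Vegfa and Tceal8 most like Cd63, at 0.88, 0.82 and 0.79. Prkca, Tox and Dennd2d were most like Cd82, at 0.82, 0.81 and 0.76. For Cd151 these were Apbb2, Pdgfa and Mex3d, at 0.95, 0.93 and 0.93, and for Tspan8 Bambi, Gm48226 and Depp1, at 0.85, 0.84 and 0.82. Under Spearman correlation most of these names changed. Of the 5 named for Cd81 1 was kept, of the 3 named for each other member 1 for Cd9, Cd63 and Cd151, 2 for Cd82 and 0 for Tspan8. Among the members themselves, the highest r was 0.70 for Cd81 and Cd151, and the lowest -0.30 for Cd9 and Cd82.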

How the data were processed

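Dispersed islet cells of 4 mouse samples were sequenced with 10x libraries. The deposited values are raw UMI counts per gene and cell. Cell Ranger 6.1.2 produced them, per the file headers, and mm10 was the build, per the submitters' processing notes. Which annotation was used was not given in the sources used here. Of the gene identifiers, 32158 (99.6%) were found in GENCODE M21.

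Cells with at least 500 genes and at most 20% mitochondrial UMIs were kept. Cells outside the hormone classes were named when at least 3 markers of a class were detected, at least 2 times as many as of any other class. Of the kept cells, 14379 (89.1%) had a class, and 529 with mixed markers, 352 with under 3 markers and 886 with several hormones were left out. No doublet caller was run. Counts were added up over the cells of a class in a library and scaled to that class's total. Libraries are not tied to genotypes, so no genotype was compared and no p-value is given. Thinning drew 5000 UMIs per cell without replacement. The members, lists and named genes were chosen with earlier results of these data known. Named genes beyond the members were the 6 other tetraspanins and 3 genes each of partners and vesicle genes with the most UMIs, the 8 maturity genes (1 of them is not reported here), and the genes of highest r (5 for Cd81, 3 for others). The ratio and range steps were tested on simulated counts. Alternatives were other totals, filters, pseudocounts, thresholds and splits, and leaving out each library. Python 3.11.15, numpy 2.4.6, scipy 1.17.1 and pandas 2.3.3 were used.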

Additional observations from a re-analysis of the deposited data

Results flagged for a closer look

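Cells outside every class also held Cd81 above the limit that a count of 0 allows, and the comparisons as reported left them out (those of several hormones entered 1 alternative). In cells that reached several hormone thresholds Cd81 stood at 297, 188, 288 and 195 CPM in libraries 1 to 4. In cells with mixed markers it stood at 261, 352, 397 and 504 CPM, the last from 8 cells. In cells with under 3 markers of any class it stood at 197, 261, 246 and 347 CPM.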

How the results depend on the processing

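Of 1899 recomputed values, 1486 stayed within the spread between libraries (for levels, the counting interval; for counts and ranges, 1.5-fold), 413 moved further and 0 changed the sign of a ratio past 2-fold in every library. The range of Cd81 in Spp1-low beta cells went from 2.46 when CPM was averaged over cells to 3.0 with a pseudocount of 1, and without 1 library it was 2.61 to 2.67. The count past 2-fold between Spp1-low beta and alpha cells became 1, Cd9, with 1000 genes and 10% mitochondrial UMIs, with a pseudocount of 1 and without library 3 (0 to 1 without 1 library). It also became 1 in both alternatives chosen after seeing the data, beta cells with under 1% of UMIs from each of Gcg, Sst and Ppy and beta cells with at least 35% from Ins2. In the latter, the count against delta cells became 3 (Cd9, Cd63 and Tspan8), and with a pseudocount of 1 it became 2. With cells of several hormones kept, the counts of delta and Ppy over alpha cells became 1 and 1, Tspan8 in each. With a pseudocount of 1, members with a 2-fold range numbered 4 in Spp1-low beta, 1 in alpha, 2 in delta and 2 in endothelial-like cells. Without 1 library these counts were 2 to 4 in Spp1-high beta, 0 to 1 in delta and 0 to 1 in endothelial-like cells. The causes were not tested. A pseudocount of 1 also raised the genes past 2-fold, from 474 to 1476 between Spp1-low beta and alpha cells, from 425 to 1200 against delta cells and from 507 to 1210 between delta and alpha cells. With several-hormone cells kept, these were 305, 188 and 265, and between Ppy and alpha cells 51 in place of 295. A pseudocount of 1 gave 22 genes in place of 5 between the beta classes, 1007 for Ppy, 3996 in place of 2313 for endothelial-like, 4014 in place of 2256 for ductal-like, 4658 in place of 2559 for macrophage-like and 4573 in place of 2976 for B cell-like over alpha cells. Genes with a 2-fold range became 2359 in place of 358 in Spp1-low beta, 4672 in place of 995 in Spp1-high beta, 878 in place of 250 in alpha, 1214 in place of 318 in delta and 1863 in place of 1025 in endothelial-like cells. In alpha cells they were 141 with CPM averaged over cells and 96 without library 1, and in delta cells 144 without library 1. Between Ppy and alpha cells 513 genes passed without library 2 and 459 without library 4, and between the beta classes 9 without library 3 and 9 with Spp1 up to 0.1% set against 1% or more. With at least 35% Ins2, 935 genes passed against alpha and 727 against delta cells. With hormone genes taken out, 2 of the 5 genes most like Cd81 were kept. Other changes lay within 1.5-fold in number but changed which members were counted. With hormone genes out, Cd81 was lost in ductal-like and Cd63 in macrophage-like cells, Cd82 took the place of Tspan8 in endothelial-like cells, and 5 members had a 2-fold range in Spp1-high beta cells. Cd63 was also lost in macrophage-like cells with CPM averaged over cells, with several-hormone cells kept and with doubled thresholds, and Tspan8 in endothelial-like cells with several-hormone cells kept. With CPM averaged over cells, Cd9 lost its 2-fold range in Spp1-high beta cells and gave way to Cd63 in endothelial-like cells. Cd9 also lost it in Spp1-high beta cells without library 2, and Tspan8 with under 1% of other hormones. No paired analysis was possible because the samples' replicate numbers cannot be tied to libraries; classes were compared within each library throughout. Depth limits values resting on few UMIs, such as Tspan8 in Spp1-high beta cells of libraries 2 and 4 (1 and 11 UMIs). In pericyte-like cells Cd82 rested on 16 and 4 UMIs in libraries 1 and 4, and all members there rested on 20 cells in each.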

Other observations

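Genes that shared the Cd81 pattern in beta cells were sought after its values had been seen. In Spp1-low beta cells 35 of 14184 genes had a range over libraries of at least 4-fold, and 6 of these had a range under 1.5-fold in both alpha and delta cells. They were Cryba2, Gatm, Cd81, Gast, Etv1 and Slc38a5. Gast in alpha cells (1.26 to 3.97 CPM) and Slc38a5 in delta cells (4.83 to 9.77 CPM) lay under the 10 CPM that were added, which makes their range narrow, so nothing is read from these values. Gatm, an enzyme of creatine synthesis, held 48.9, 3.74, 55.9 and 3.30 CPM in libraries 1 to 4, the amino acid transporter Slc38a5 41.5, 2.22, 38.7 and 1.82 CPM, and the transcription factor Etv1 66.7, 14.3, 81.0 and 11.4 CPM. Cryba2 held 177, 42.7, 203 and 41.3 CPM. With hormone genes taken out of the totals, 71 genes had such a range in beta cells and 7 were narrow in alpha and delta cells, 3 of them shared with the first set, Cd81 included.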
